A study of Mus musculus with 16 samples.

Results

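The Polycomb complex subunits described here are 10 mouse genes: Ezh2, Eed, Suz12 and Mtf2 of PRC2, and Cbx2, Cbx6, Cbx7, Phc1, Bmi1 and Rnf2 of PRC1. Members were found by gene symbol among all probes of an Illumina BeadChip expression table, which gave 14 of 25697 probes and 10 of 16590 named genes. Of these, 11 probes of 8 members passed the filter on dim probes, which asked for a detection p under 0.01 on at least 4 of the 16 arrays. Cbx6 and Rnf2 did not pass, and they are accounted for below.

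The study followed the stepwise induction of pluripotent cells from fibroblasts, in 4 groups of 4 dishes, each dish on an array of its own. The groups were embryonic fibroblasts (MEF), an intermediate stage called OKM cells (titled 3F in the labels, which do not spell out the letters), induced pluripotent stem cells (iPS, titled 3F-SOX2) and embryonic stem cells (ES, titled R26). The strain was CD1 for MEF, OKM and iPS cells and 129 for ES cells. The growth protocol put OKM, iPS and ES cells on primary MEF feeders treated with mitomycin C, in 15% serum with 10 ng/ml of leukemia inhibitory factor, while MEF grew without feeders in 10% serum. Any difference from MEF therefore cannot be told apart from a difference in culture, and any difference between ES and the other groups cannot be told apart from a difference in strain. The labels call the dishes independent but name no separate embryos, clones or derivations, so each p-value measures the spread between dishes. RNA came from whole dishes, feeders included where present, and fewer cells of a type cannot be told apart from less RNA per cell.

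Polycomb proteins keep developmental genes silent through a pair of chromatin complexes. PRC2 methylates histone H3: Ezh2 or its paralog Ezh1 is the catalytic subunit, Eed and Suz12 complete the core, and accessory proteins such as Mtf2 help to bring it to CpG-rich promoters. PRC1 attaches ubiquitin to histone H2A through Rnf2 or Ring1, paired with a PCGF protein such as Bmi1, and its canonical forms also carry a CBX protein that reads the PRC2 mark and a PHC protein. Each of these slots can be filled by several paralogs, and in mouse ES cells Cbx7 is known as the main CBX subunit, with Cbx2 taking a larger share during differentiation.

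Promoter sequences were matched for 9 of the 10 members in RefSeq windows of the GRCm38.p6 build, cut to the 250 bases before the annotated start. The windows of Suz12, Ezh2, Cbx7, Phc1 and Bmi1 are shown as examples of members that changed, with Bmi1 moving against the other members. Mtf2 and Eed changed as well, and their windows are not shown. Each is written 5′ to 3′ on the strand of its gene. Capitals mark matches, on either strand, to an E2F motif (TTTCCCGC, TTTCGCGC, TTTGCCGC or TTTGGCGC), a CCAAT box (CCAAT) or an E-box (CACGTG). The octamer ATGCAAAT was searched as well and is in none of the 5. No motif searched overlaps another by its letters in these windows.
Suz12, chr11:79992856-79993105, plus strand: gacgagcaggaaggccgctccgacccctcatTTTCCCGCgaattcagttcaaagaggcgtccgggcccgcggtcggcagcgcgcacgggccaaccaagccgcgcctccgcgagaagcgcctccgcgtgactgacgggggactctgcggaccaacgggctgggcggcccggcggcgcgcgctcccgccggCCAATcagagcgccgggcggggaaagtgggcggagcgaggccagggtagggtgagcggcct
Ezh2, chr6:47595031-47595280, minus strand: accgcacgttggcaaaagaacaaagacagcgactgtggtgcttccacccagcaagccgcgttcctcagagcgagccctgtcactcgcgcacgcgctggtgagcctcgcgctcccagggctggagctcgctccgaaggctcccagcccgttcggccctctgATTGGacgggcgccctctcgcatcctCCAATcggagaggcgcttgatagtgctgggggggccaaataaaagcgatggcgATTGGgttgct
Cbx7, chr15:79932647-79932896, minus strand: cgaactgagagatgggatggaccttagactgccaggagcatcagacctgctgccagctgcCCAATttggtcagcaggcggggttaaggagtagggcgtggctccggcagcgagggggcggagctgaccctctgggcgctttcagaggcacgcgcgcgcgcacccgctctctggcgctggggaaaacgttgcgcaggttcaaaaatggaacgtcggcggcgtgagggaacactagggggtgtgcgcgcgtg
Phc1, chr6:122340228-122340477, minus strand: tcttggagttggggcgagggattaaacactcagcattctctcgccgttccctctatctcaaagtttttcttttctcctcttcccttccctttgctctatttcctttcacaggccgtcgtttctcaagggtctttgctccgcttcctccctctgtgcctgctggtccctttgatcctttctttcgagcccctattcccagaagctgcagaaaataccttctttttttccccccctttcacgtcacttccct
Bmi1, chr2:18676768-18677017, plus strand: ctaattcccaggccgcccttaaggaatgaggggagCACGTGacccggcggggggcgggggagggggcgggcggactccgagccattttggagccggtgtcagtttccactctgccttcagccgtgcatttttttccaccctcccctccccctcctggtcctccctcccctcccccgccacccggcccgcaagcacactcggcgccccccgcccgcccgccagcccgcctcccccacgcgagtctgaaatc
The Suz12 window holds 1 E2F match, 1 CCAAT box and 37 CG pairs, a CG count reached by 2.2% of the 32851 windows in the table. The Ezh2 window holds 3 CCAAT boxes and the Cbx7 window 1, a motif present in 33.8% of all windows, and each of them has 23 CG pairs. Bmi1 has 1 E-box, a motif in 6.02% of windows, and 21 CG pairs. The Phc1 window has no match to any motif searched and 8 CG pairs, close to the median of 6. Among windows not shown, those of Eed and Rnf2 and the first of Mtf2 have no match either. The Cbx6 window has 1 E-box and the second Mtf2 window 1 CCAAT box. The E2F motif is in 1.86% of all windows and the octamer in 1.6%. These matches describe letters in the window and are not evidence of binding.

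Most subunits that passed the filter were lowest in MEF and highest in ES cells, and Bmi1 ran the other way. Levels are given as log2 of the background-corrected, quantile-normalized bead intensity, 1 value per array, and are compared within a probe only. A gene is called changed at an adjusted p under 0.05 in limma (Benjamini-Hochberg over 9455 genes) with at least a 2-fold difference. The error after each log2 change is its standard error (SE), with 4 arrays in each group.

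Ezh2, the main PRC2 methyltransferase of dividing cells, had levels of 9.62, 9.70, 9.83 and 9.84 in MEF, 10.81, 11.07, 10.48 and 10.51 in OKM, 11.24, 11.43, 11.21 and 11.18 in iPS and 11.83, 11.82, 11.93 and 12.12 in ES cells. The 4 groups did not overlap, and each stood above the one before it. The second Ezh2 probe that passed the filter was dim, averaging 4.94 ± 0.24 in MEF, 5.17 ± 0.23 in OKM, 5.80 ± 0.13 in iPS and 6.40 ± 0.08 in ES cells (SD, n = 4 each). It kept the same order but was detected on 0 of 4 MEF arrays and 1 of 4 OKM arrays. The last of the 3 Ezh2 probes was detected on no array.

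Suz12, the core subunit that holds PRC2 together, read 11.24, 11.13, 11.35 and 11.54 in MEF, 12.42, 12.56, 12.35 and 12.33 in OKM, 13.13, 12.77, 12.89 and 12.64 in iPS and 13.23, 13.08, 13 and 13.13 in ES cells. Its iPS and ES arrays overlapped, and these neighbours did not differ beyond their spread. Mtf2, also called Pcl2, is a Polycomb-like accessory subunit that binds DNA rich in CpG. Its levels were 7.18, 6.58, 7.07 and 7.09 in MEF, 8.40, 8.67, 8.28 and 8.23 in OKM, 10.20, 9.61, 9.83 and 9.44 in iPS and 10.32, 10.34, 10.73 and 10.55 in ES cells. No group of Mtf2 overlapped another.

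Eed, the core subunit that reads the methyl mark and stimulates the enzyme, was the most variable member. It had levels of 7.78, 6.70, 7.26 and 6.50 in MEF, 7.95, 6.58, 7.50 and 6.98 in OKM, 8.44, 9.12, 8.03 and 8.67 in iPS and 8.54, 9.45, 9.80 and 8.95 in ES cells. MEF and OKM overlapped, iPS and ES overlapped, and the first pair of groups lay wholly below the second. The SD within a group was 0.58 in MEF, 0.60 in OKM, 0.45 in iPS and 0.55 in ES cells, against 0.05 to 0.33 for the other 7 members tested. This spread followed column order. All 8 arrays in the first 8 columns of the table lay below their own group mean for Eed, and all 8 arrays in the last columns lay above it.

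**Figure D1:**
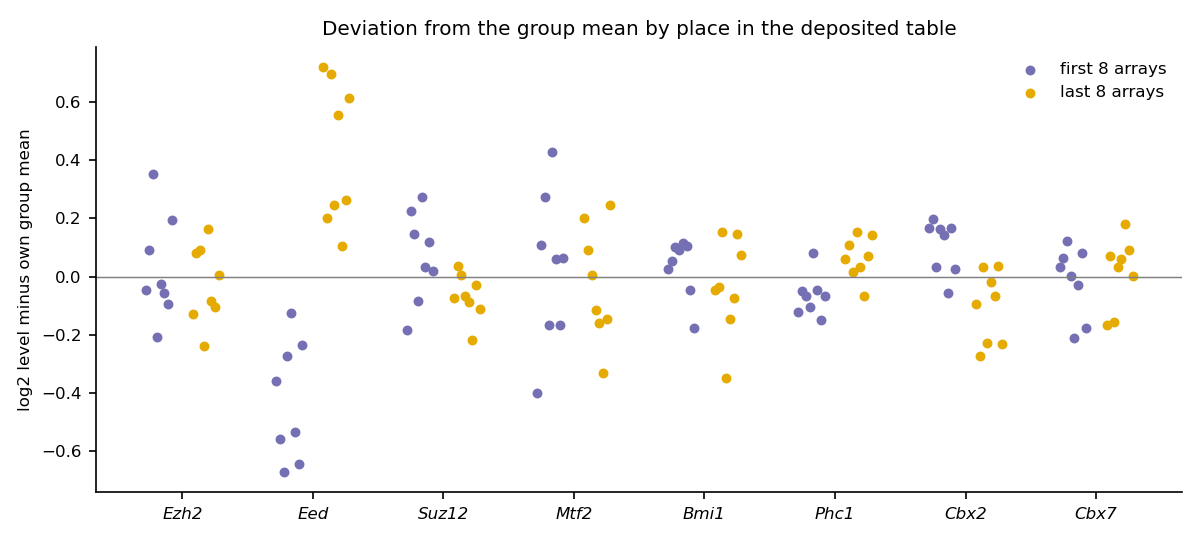
Level of each tested member on every array minus its own group mean (log2), with the first 8 and the last 8 arrays of the deposited column order in separate colours. Only for Eed do all first arrays sit below 0 and all last arrays above it, with a mean difference of -0.85.

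The mean Eed difference, first 8 minus last 8, was -0.85 on the log2 scale, and 25 of the tested genes (0.264%) had one as large. The median size over all tested genes was 0.10, and the other members lay between 0.03 and 0.21. Phc1 showed a like pattern at a small size, with 7 of 8 first arrays below and 7 of 8 last arrays above their group means and a difference of -0.13, a size reached by 39.1% of tested genes. Cbx2 leaned the other way, by 0.21, a size reached by 18.4%. Each group gave 2 arrays to each set, so the place is balanced over groups. The labels do not say what the column order stands for.

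Cbx7, the CBX subunit known as dominant in mouse ES cells, had levels of 5.43, 5.63, 5.67 and 5.66 in MEF, 7.80, 8.08, 7.99 and 7.96 in OKM, 9.86, 10.13, 10.04 and 10.25 in iPS and 10.77, 10.78, 10.69 and 10.51 in ES cells. It was detected on 0 of 4 MEF arrays and on all arrays of the other groups, so its fold changes against MEF are lower bounds. The 4 groups were fully separate, in the order MEF, OKM, iPS and ES.

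Cbx2, a CBX subunit able to compact chromatin, read 6.09, 6.35, 5.91 and 6.38 in MEF, 7.86, 7.86, 7.60 and 7.99 in OKM, 7.67, 7.51, 7.47 and 7.46 in iPS and 8.44, 8.31, 8.04 and 8.30 in ES cells. Its iPS arrays overlapped those of OKM and stood no higher. Phc1, a polyhomeotic protein that links PRC1 complexes to each other through its SAM domain, read 9.57, 9.39, 9.62 and 9.46 in MEF, 11.47, 11.39, 11.61 and 11.35 in OKM, 12.47, 12.42, 12.34 and 12.32 in iPS and 12.32, 12.54, 12.61 and 12.40 in ES cells. Its iPS and ES arrays overlapped, while MEF and OKM each stood apart. The other Phc1 probes kept the order of the group means, with 8.71 and 4.61 in MEF, 10.50 and 5.88 in OKM, 11.59 and 7.03 in iPS and 11.79 and 7.48 in ES cells.

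Bmi1, also called Pcgf4, is the PCGF partner that stimulates the ubiquitin ligase and is best known for holding the Cdkn2a locus silent in fibroblasts and tissue stem cells. It had levels of 8.75, 8.82, 8.76 and 8.85 in MEF, 7.73, 7.68, 7.23 and 7.67 in OKM, 7.69, 7.43, 7.68 and 7.50 in iPS and 5.80, 5.99, 5.92 and 5.67 in ES cells. MEF stood highest and ES lowest with no overlap, and OKM and iPS cells lay together between them. The ES arrays were near the detection limit, with 3 of 4 detected.

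Rnf2 (Ring1b), the main ubiquitin ligase of PRC1 in ES cells, and Cbx6, another CBX subunit, had 1 probe each, detected on 0 of 16 arrays. Raw intensities were 94.2 to 116.2 for Rnf2 and 87.8 to 107.4 for Cbx6 on the 16 arrays. No direction is given for either gene, and a dim probe does not show that the transcript was absent.

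**Figure D2:**
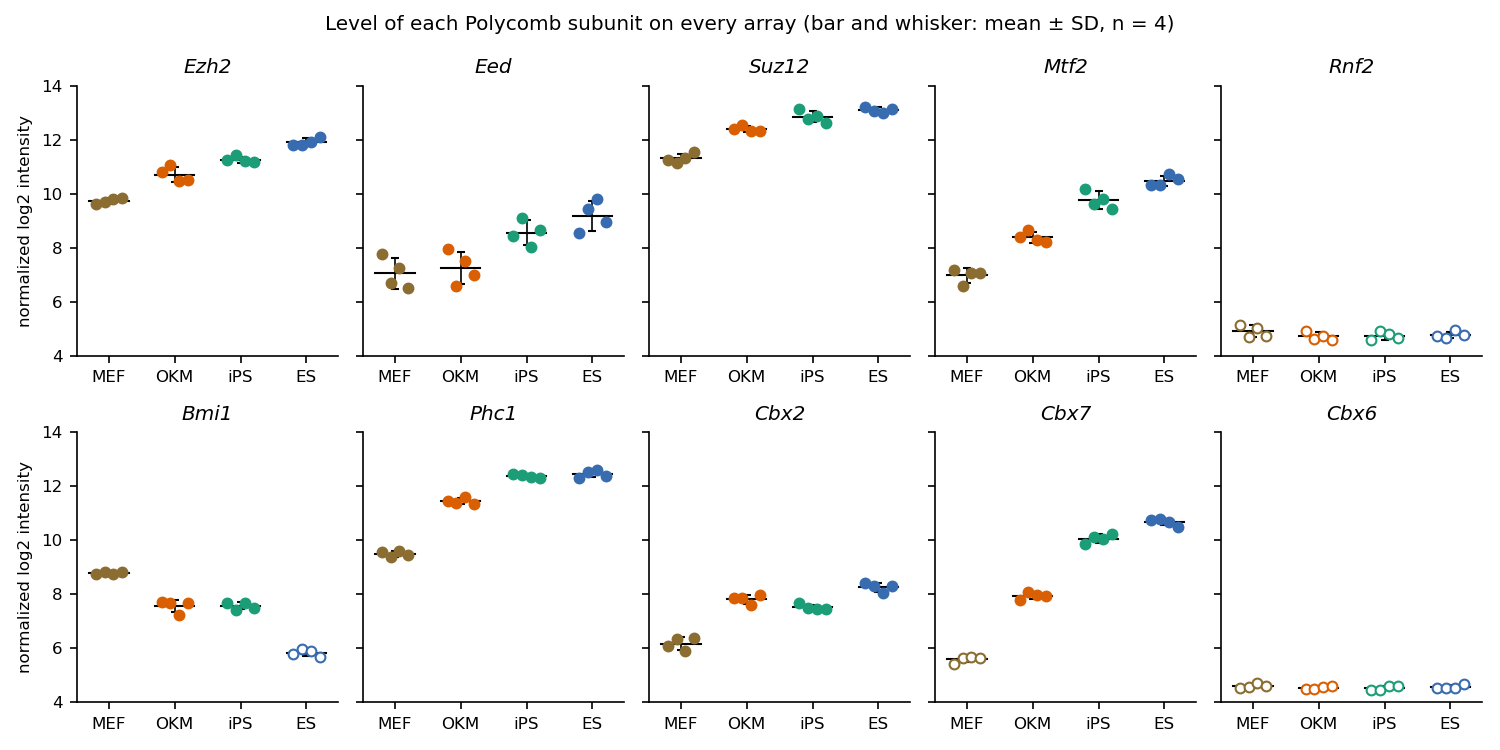
Level of each member's representative probe (log2 normalized intensity) on every array, in the order MEF, OKM, iPS and ES, with a bar and whisker for the mean and SD of 4 arrays. Hollow points mark groups in which the probe was not detected on all 4 arrays. 7 panels are higher in ES than in MEF, Bmi1 is lower, and Cbx6 and Rnf2 are hollow in every group.

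The first step of the induction, OKM against MEF, brought higher levels of Suz12 and Mtf2 in PRC2 and of Cbx7, Phc1 and Cbx2 in PRC1, and a lower level of Bmi1. Of the 8 members tested, 5 were called higher and 1 lower, against a background of 31.9% of all tested genes called in either direction, 16.1% higher and 15.8% lower. Cbx7 rose by at least 4.60-fold, with a fitted log2 change of 2.36 ± 0.10 (SE, limma adjusted p = 6.43e-13). Phc1 rose by 1.94 ± 0.09 (adjusted p = 2.06e-12). For Cbx2 the rise was 1.65 ± 0.12 (adjusted p = 9.34e-10). All arrays of OKM lay above all arrays of MEF for these 3 PRC1 genes.

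In PRC2, Mtf2 was higher in OKM than in MEF by 1.42 ± 0.16 (adjusted p = 5.26e-07) and Suz12 by 1.10 ± 0.11 (adjusted p = 9.61e-08). Ezh2 was higher by 0.97 ± 0.12 (adjusted p = 1.40e-06), or 1.96-fold, and so fell just short of the 2-fold threshold. Its adjusted p alone is a weak filter here, since 70.5% of all tested genes passed it. Ezh2 passed the fold threshold at 1.05 without OKM replicate 3 and at 1.04 without OKM replicate 4, which takes the count of members called to 7. Suz12 lay on the other side of that line: its change was 0.93 with cyclic loess and 0.98 with median scaling, both under 2-fold. Eed differed by 0.19 ± 0.33 (adjusted p = 0.625), and with column order as a block by 0.19 ± 0.16 (adjusted p = 0.298). Bmi1 fell by 1.22 on the log2 scale (SE 0.11, adjusted p = 2.21e-08). Without background correction the changes of Mtf2, Cbx2 and Bmi1 were 0.99, 0.98 and -0.94, which ends their calls. Cbx7 stayed called at 1.32, which is less than the bound above, so that bound holds for background-corrected values only. In the same comparison 9 of 9 tested fibroblast markers and 4 of 4 tested blood and macrophage markers were called lower. The log2 fibroblast sum was 13.92 to 14.07 in OKM against 16.54 to 16.65 in MEF. Of 4 endothelial markers on the table, Cdh5 and Kdr did not pass the filter, and the 2 tested, Pecam1 and Tek, were called higher. Pecam1 was not particular to OKM, averaging 10.77 in OKM, 9.69 in iPS and 10.01 in ES cells. The part of these cell types in the Bmi1 difference was not tested.

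The second step, iPS against OKM, changed fewer members: 3 of 8 were called higher and 0 lower, against 13.2% of all tested genes called, 7.28% higher and 5.94% lower. Cbx7 rose again, by 2.11 ± 0.10 (adjusted p = 1.29e-11), and Mtf2 by 1.38 ± 0.16 (adjusted p = 1.91e-06). Eed rose by 1.31 ± 0.33 (adjusted p = 0.00305). With column order as a block the Eed change was 1.31 ± 0.16 (adjusted p = 3.6e-06), and it was 1.46 within the first 8 arrays and 1.17 within the last 8. Without background correction it was 0.95, under 2-fold. Eed thus differed between iPS and OKM and not detectably between OKM and MEF, while Suz12 and Cbx2 were called in the step to OKM and not in the step to iPS. Whether the 2 steps differ for a gene was not tested.

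Phc1 was higher in iPS than in OKM by 0.93 ± 0.09 (adjusted p = 1.55e-07), or 1.91-fold, Ezh2 by 0.55 ± 0.12 (adjusted p = 0.00101) and Suz12 by 0.44 ± 0.11 (adjusted p = 0.00312), all under the 2-fold threshold. These pass the adjusted p, as 54.8% of all tested genes did. The other Phc1 probes passed that threshold, at 1.09 and 1.15. Cbx2 differed by -0.30 ± 0.12 (adjusted p = 0.0418), also under 2-fold. Bmi1 differed by -0.01 ± 0.11 (adjusted p = 0.970), and its arrays overlapped.

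**Figure D3:**
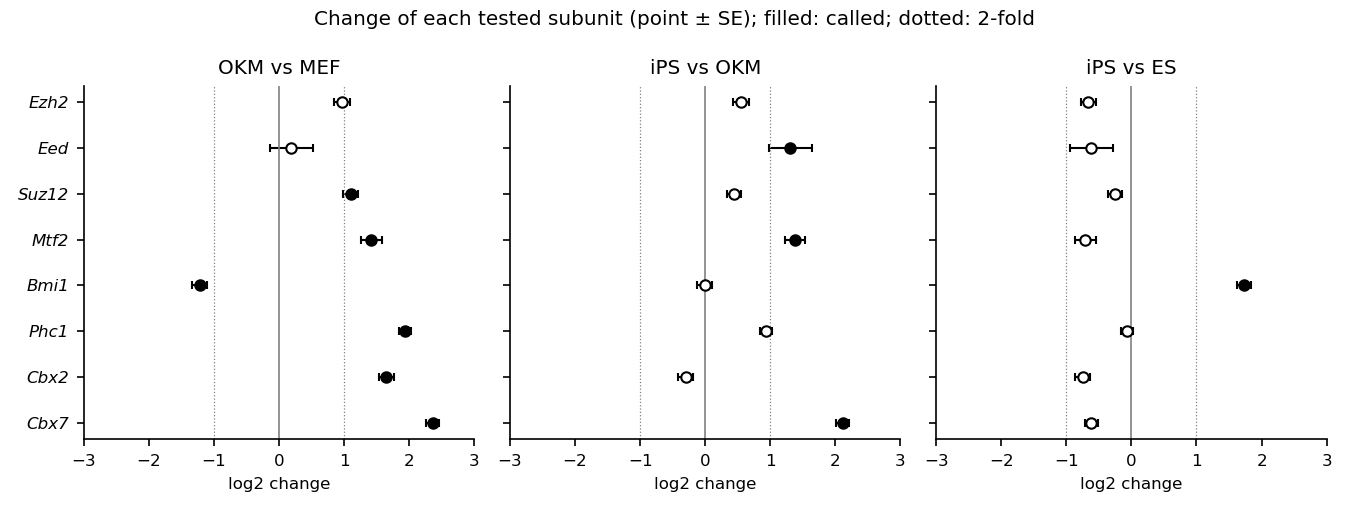
Log2 change of each tested member with its SE in OKM against MEF, iPS against OKM and iPS against ES, filled where called, with dotted lines at 2-fold. Cbx7 lies at 2.36 and 2.11 in the first 2 panels, where the first is a fitted value against MEF arrays that did not detect it, and in the last Bmi1 alone lies right of the 2-fold line (1.73).

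iPS and ES cells were close for Phc1 and Suz12 and apart for Bmi1. In iPS against ES, 1 of 8 members was called higher and 0 lower, against 18.5% of all tested genes called, 11.2% higher and 7.28% lower. Bmi1 was higher in iPS cells by 1.73 ± 0.11 (adjusted p = 5.29e-10), or 3.32-fold. It was also higher by 1.95 within the first 8 arrays and by 1.51 within the last 8, and by 0.95, under 2-fold, without background correction. The fibroblast markers Dcn and Thy1 were also called higher in iPS cells, with changes of 1.90 and 1.00, and the other 7 of 9 tested were not called. The log2 of the summed level of the 9 tested markers was 13.7 to 14 in iPS and 11.54 to 12.98 in ES cells, with 2 of the 9 detected on no array in each of these groups. Of 4 blood and macrophage markers, Lyz2 was called lower in iPS cells, with a change of -2.61. The part of feeder or fibroblast RNA, and of strain, in the Bmi1 difference was not tested.

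Smaller differences ran the other way. Cbx2 was lower in iPS than in ES cells by 0.75 on the log2 scale (a change of -0.75 ± 0.12, adjusted p = 3.61e-05). Mtf2 differed by -0.71 ± 0.16 (adjusted p = 0.00117), Ezh2 by -0.66 ± 0.12 (adjusted p = 0.000164) and Cbx7 by -0.62 ± 0.10 (adjusted p = 4.79e-05). Each of the 4 passed the adjusted p, as 61.9% of all tested genes did, and missed the 2-fold threshold. Eed differed by -0.62 ± 0.33 (adjusted p = 0.119, or 0.00331 with column order as a block), Suz12 by -0.25 ± 0.11 (adjusted p = 0.0588) and Phc1 by -0.07 ± 0.09 (adjusted p = 0.500).

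Across the whole span, ES against MEF, 7 of 8 members were called higher and 1 lower, against 48.5% of all tested genes called, 24.2% higher and 24.3% lower. Cbx7 was at least 30.5-fold higher in ES cells on background-corrected values, and its log2 change was 3.70 without background correction. The log2 change was 3.50 ± 0.16 for Mtf2, 2.95 ± 0.09 for Phc1, 2.17 ± 0.12 for Ezh2, 2.12 ± 0.33 for Eed, 2.09 ± 0.12 for Cbx2 and 1.79 ± 0.11 for Suz12. Bmi1 fell by 2.95 on the log2 scale (SE 0.11, adjusted p = 6.59e-14), or 7.74-fold, with a change of -1.89 without background correction. In iPS against MEF the same 7 members were higher and Bmi1 lower, against 36.5% of genes called, with Cbx7 at least 19.9-fold higher on background-corrected values (a log2 change of 3.12 without the correction) and Mtf2 higher by 2.79 ± 0.16. The adjusted p alone was passed by 81.7% of all genes in ES against MEF and 76.3% in iPS against MEF. In OKM against ES, 1 member (Bmi1) was called higher and 5 lower, against 34.5% of genes called, 18% higher and 16.5% lower, with 73.9% past the adjusted p alone. The members called lower in OKM were Cbx7, Mtf2, Eed, Ezh2 and Phc1, with changes of -2.73, -2.09, -1.93, -1.21 and -1.01, and Phc1 was at -0.96 to -0.99, no longer called, without OKM replicate 2 or 4 or ES replicate 2 or 4. These comparisons share their MEF and ES arrays, and iPS against MEF called 19% of genes higher and 17.5% lower.

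The summed level of proliferation genes followed the same order of groups as most members. The log2 of the summed level of the 9 tested proliferation genes was 13.27 to 13.41 in MEF, 14.55 to 14.66 in OKM, 14.94 to 15.09 in iPS and 15.39 to 15.61 in ES cells. In OKM against MEF 7 of the 9 were called higher and 0 lower, against 16.1% and 15.8% of all genes. In ES against MEF 8 were higher and 1 lower, against 24.2% and 24.3%. Fewer were called in iPS against OKM, with 1 higher and 0 lower, against 7.28% and 5.94% of all genes. In iPS against ES 1 was higher and 1 lower, against 11.2% and 7.28%. Pluripotency markers were detected on no MEF array, which checks the labels. The log2 of their summed level was 12.16 to 12.32 in OKM, 16.33 to 16.37 in iPS and 16.73 to 16.88 in ES cells. The OKM sum came mainly from Pou5f1 and Sox2, which averaged 11.59 and 10.12 there. Of the 8 markers, 4 were detected on all 4 OKM arrays. Esrrb and Utf1 were detected on 0 of 4 and Nanog on 1 of 4. The part of proliferation or pluripotency genes in the subunit changes was not tested.

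Paralogs that can fill the same slot of a complex changed unequally in several slots. In the PHC slot, Phc1 was higher by 2.95 and Phc2 lower, with a change of -1.74 (limma adjusted p = 3.28e-10), in ES against MEF. The difference of the changes was 4.69, with no overlap between the arrays of ES and MEF in the Phc1 minus Phc2 value. Phc2 levels were 9.73, 9.54, 9.76 and 10.07 in ES cells, against 11.33, 11.46, 11.56 and 11.72 in MEF. The mean was 11.30 ± 0.19 in iPS and 12.04 ± 0.08 in OKM cells (SD, n = 4 each), and Phc2 was called in ES and in neither of the CD1 stages against MEF.

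In the CBX slot, the fitted change in ES against MEF was 5.09 for Cbx7, whose MEF level is not above background, and 2.09 for Cbx2. The fitted difference of 2.99 depends on the background correction and was 2.38 without it. The changes in iPS against OKM, where Cbx7 was detected on all arrays, were 2.11 and -0.30, a difference of 2.41. Cbx8, a CBX subunit common in differentiated cells, fell in ES against MEF, with a log2 change of -1.65 (adjusted p = 4.10e-08). Its arrays read 5.76, 5.28, 5.12 and 6.19 in ES cells, of which 2 were detected, against 7.28, 7.26, 7.25 and 7.18 in MEF. The difference of changes, Cbx7 minus Cbx8, was 6.74. Without background correction it was 4.52 with Cbx7 at 3.70, so the Cbx8 fall was then under 2-fold. Cbx8 was also lower in iPS than in OKM cells, by -1.15 (adjusted p = 1.49e-05), where Cbx7 rose. In OKM against MEF, however, Cbx8 was higher along with Cbx7, by 0.76 (adjusted p = 0.000487), under 2-fold and with no overlap of arrays. The Cbx8 change in iPS against MEF was -0.38 (adjusted p = 0.0423), also under 2-fold. The Cbx6 probe gave no level to compare.

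In the PCGF slot, Bmi1 changed by -2.95 and Pcgf2 (Mel18), its closest paralog, by 1.18 (adjusted p = 1.36e-07) in ES against MEF, a difference of -4.13. Without background correction the Bmi1 change was -1.89 and the difference -2.55, so the Pcgf2 rise was then under 2-fold. Pcgf2 read 7.51, 7.55, 7.08 and 7.08 in ES cells, against 6.2, 6.26, 5.87 and 6.17 in MEF. The MEF values were detected but near the lowest detected signal of those arrays, 5.69 to 5.86. In OKM against MEF the fall of Bmi1 had no counterpart in Pcgf2, which changed by -0.11 (adjusted p = 0.452). Ring1, the paralog of Rnf2, differed by -0.40 in OKM against MEF and by -0.69 in ES against MEF, under 2-fold in both.

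**Figure D4:**
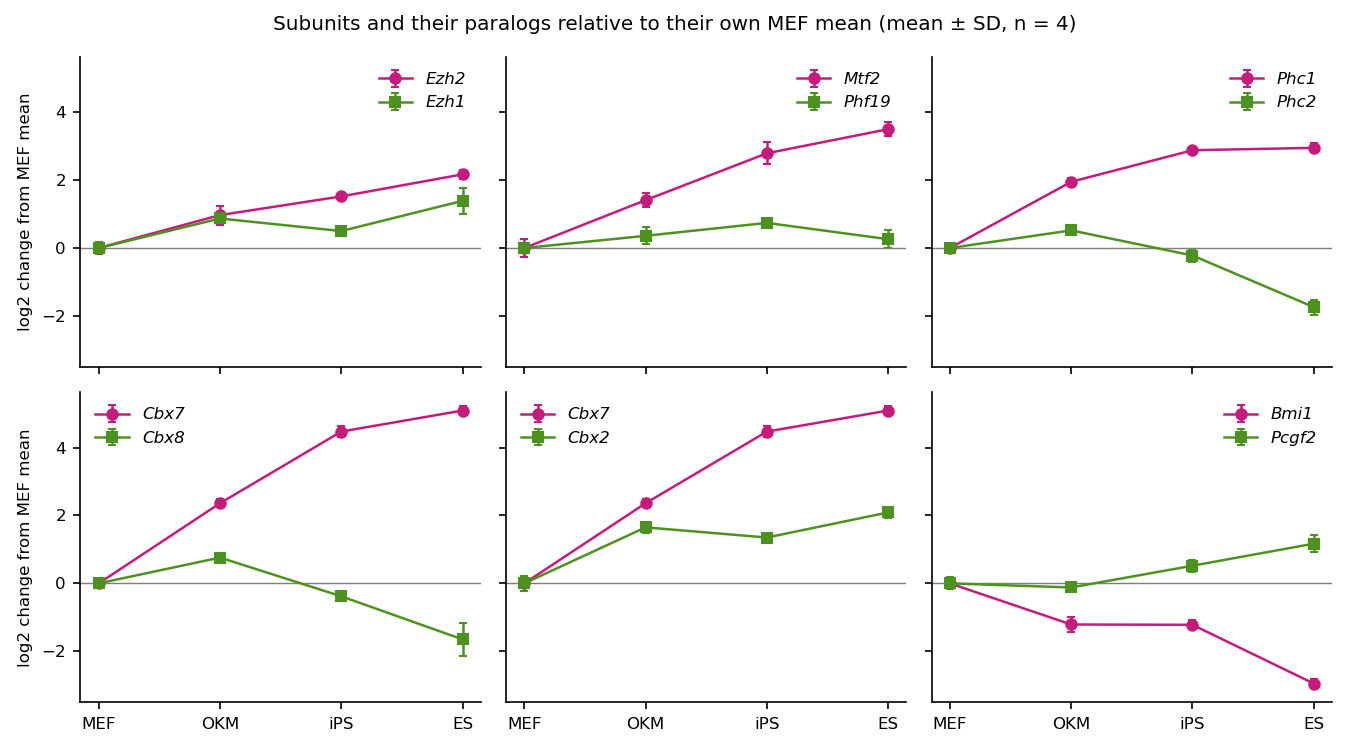
Level of members (circles) and of their paralogs (squares) relative to each gene's own MEF mean, on the log2 scale, in the order MEF, OKM, iPS and ES (mean and SD over 4 arrays). In ES cells Phc1 and Cbx7 lie above 0 with Phc2 and Cbx8 below it, Bmi1 lies below 0 with Pcgf2 above it, and Ezh2 and Ezh1 both lie above it.

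In PRC2, Ezh1 and Phf19 were compared with Ezh2 and Mtf2. Ezh1, the less active methyltransferase paralog, changed by 1.39 (adjusted p = 1.31e-07) and Ezh2 by 2.17 in ES against MEF, a difference of 0.79, or 1.32 without background correction. In MEF the Ezh1 probe was near background, averaging 5.94 with 3 of 4 arrays detected. At the OKM stage the changes against MEF were 0.86 for Ezh1 and 0.97 for Ezh2. That difference of 0.10 turned to -0.06 with cyclic loess and -0.02 with median scaling, and the arrays overlapped. The pair moved in opposite directions in iPS against OKM, with changes of 0.55 for Ezh2 and -0.37 for Ezh1 (adjusted p = 0.0454), both under 2-fold. Phf19, a Polycomb-like paralog of Mtf2, changed by 0.27 (adjusted p = 0.0794) in ES against MEF where Mtf2 changed by 3.50, a difference of 3.24. In iPS against ES the changes were -0.71 for Mtf2 and 0.48 for Phf19 (adjusted p = 0.0058), again both under 2-fold. Jarid2 and Phf1 did not pass the filter.

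Other subunits of both complexes came from a list of 9 PRC2 and 22 PRC1 genes. Of the PRC2 list 8 are on the table and 5 passed the filter. In OKM against MEF 1 was called higher and 0 lower, against 31.9% of all genes called, with a median log2 change of 0.60 against 0.02 over all genes. In ES against MEF 2 were called higher and 0 lower, against 48.5% of all genes, with a median of 0.73 against 0.04. Neither count exceeds the share over all genes. The gene called in both was Epop, an accessory subunit known for its expression in ES cells, and the other was Ezh1. Epop averaged 6.67 ± 0.15 in MEF, 11 ± 0.10 in OKM, 12.66 ± 0.15 in iPS and 12.40 ± 0.06 in ES cells (SD, n = 4 each). Its log2 change was 4.33 in OKM against MEF and 1.66 in iPS against OKM, larger than that of any of the 4 PRC2 members in either step.

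Of the PRC1 list 19 are on the table and 17 were tested. In OKM against MEF 2 were called higher and 1 lower, in iPS against OKM 2 and 1, in iPS against ES 2 and 1, and in ES against MEF 4 and 4. The shares of all genes called in these comparisons were 31.9%, 13.2%, 18.5% and 48.5%, so the list as a whole is near or below the background. The median log2 change in ES against MEF was -0.39 against 0.04 over all genes. The 4 higher in ES cells were L3mbtl2, Pcgf6, Usp7 and Pcgf2, and the 4 lower were Phc2, Cbx8, Auts2 and Yaf2. Pcgf6, the PCGF protein of a variant PRC1, rose by 1.14 in OKM against MEF and by 1.02 in iPS against OKM. Its partner L3mbtl2 rose by 1.38 in iPS against OKM and by 3.66 in ES against MEF, with 1 of 4 MEF arrays detected. L3mbtl2 was lower in iPS than in ES cells, by -1.50. Bcor, a scaffold of another variant PRC1, rose by 1.49 in OKM against MEF, and Auts2, which joins PRC1 forms linked to active genes, was called lower at 2.01-fold.

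**Figure D5:**
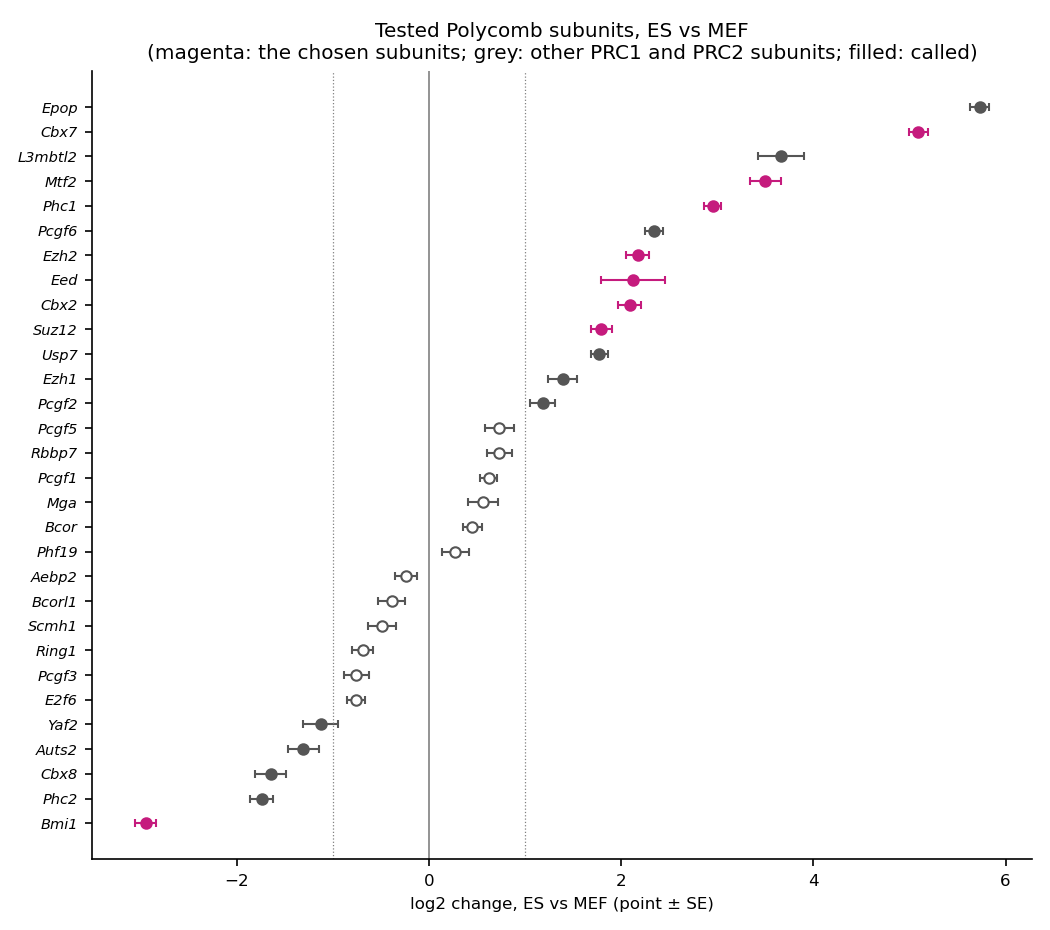
Log2 change with SE in ES against MEF of every tested PRC1 and PRC2 subunit, members in magenta and others in grey, filled where called. Epop lies at 5.73 and Bmi1 at -2.95. The Cbx7 point, at 5.09, is a fitted value against MEF arrays that did not detect it, and its place among the others is not a measured rank.

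Phc2 and Cbx8 were called higher in iPS than in ES cells, with changes of 1.53 and 1.27, beside the Bmi1 change of 1.73. The fibroblast marker sum given above was also higher in iPS cells, though only Dcn and Thy1 of its 9 markers were called. ES replicate 5 read lowest for Dcn, at 9.50, against 11.25 to 11.48 on the other ES arrays. Pcgf3, another PCGF paralog, was lower in ES than in MEF, with a change of -0.76 (adjusted p = 2.79e-05), and its change in iPS against ES was 0.00 (adjusted p = 0.986). Other subunits lower in ES than in MEF were not alike in iPS against ES. Their changes there included -0.02 for Ring1, 0.20 for Auts2, 0.94 for Yaf2 and 0.98 for E2f6, all under 2-fold. The part of fibroblast or feeder RNA in these values was not tested. Cdkn2a, the cell-cycle inhibitor locus that Bmi1 is known to repress, averaged 8.33 ± 0.34 in ES cells, against 10.26 ± 0.19 in MEF (SD, n = 4 each). Its change was -1.93 in ES against MEF and 1.62 in iPS against ES. Between OKM and MEF it differed by -0.47 (adjusted p = 0.0220), under 2-fold. The part of Bmi1, of strain and of feeder or fibroblast RNA in these Cdkn2a differences was not tested.

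As a description over the 16 arrays, which share their group structure, Bmi1 correlated with the other tested members at -0.76 to -0.92. The other 7 members correlated with each other at 0.55 to 0.98, lowest for Eed with Cbx2 and highest for Mtf2 with Cbx7. The tested genes outside the list with the highest Pearson r over the 16 arrays were, in PRC2, Mms22l (0.987) and Blm (0.983) for Ezh2, Exosc6 (0.966) and Kpna2 (0.965) for Eed, Atad5 (0.989) and Etaa1 (0.987) for Suz12, and Msh6 (0.994) and Usp28 (0.990) for Mtf2. In PRC1 they were Fcho1 (0.991) and Rassf7 (0.985) for Cbx2, Egfl7 and Slc39a4 (0.996 each) for Cbx7, Sall4 (0.996) and Cpsf4l (0.993) for Phc1, and Vopp1 (0.991) and Extl2 (0.990) for Bmi1. Between-group differences enter every one of these values.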

How the data were processed

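The authors deposited a non-normalized table that holds, per the file headers, 25697 probes with a mean bead intensity and a detection p-value on each of 16 arrays, and a normalized intensity table used as an alternative. The submitters' processing notes name GenomeStudio, with no version. A chip or scan order is not given in the sources used here. The raw median of an array lay between 114.7 and 134.2, and its share of detected probes between 44.9% and 49.1%. The number of arrays limits the precision: the median SE of a log2 change was 0.128.

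Intensities were corrected with normexp using the detection p-values, quantile normalized with an offset of 16 and put on the log2 scale (neqc, limma 3.58.1, R 4.3.3). Probes with a detection p under 0.01 on at least 4 arrays were kept (13782). Platform symbols were replaced by current ones through the Entrez ID (23962 probes) or the accession (9 probes); 1719 probes have no symbol and none has several. A gene was represented by its kept probe of highest mean level, leaving 9455 genes. One limma fit over all 16 arrays gave the 6 comparisons, with 12 residual and 4.84 prior degrees of freedom, two-sided tests and Benjamini-Hochberg adjustment. A fold change against a group in which no array detected the probe is given as a bound, against the lowest detected signal of each array. The pipeline was tested on simulated data.

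Groups came from the cell type in the labels. Replicate numbers did not pair the arrays in most comparisons, so no block was used in the main fit. In OKM against MEF 5 of 8 arrays were closest to their own number, and same-numbered arrays there also shared their place in the column order. No 2 arrays held identical values. Named genes are all members, their paralogs, up to 3 called genes per direction and list without overlapping arrays, and the 2 genes most like each member. Members, lists and tests were chosen with earlier results of these data known. Alternatives were other background correction, normalization, filters, probes, weights, call rule, the authors' normalized table, place in the table, the replicate block and leaving out each array.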

Additional observations from a re-analysis of the deposited data

Results flagged for a closer look

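In 44 groups of 4 arrays, made of the 11 member probes that passed the filter, 2 held an array far from the other 3, where chance gives about 1 in 20. Bmi1 in OKM replicate 3 read 7.23, against 7.67 to 7.73 on the other OKM arrays. Without that array the OKM minus MEF change of Bmi1 was -1.10, against -1.22 with it. Cbx7 in MEF replicate 1 read 5.43, against 5.63 to 5.67 on the other MEF arrays, all of them not well above background. Without it the Cbx7 change in OKM against MEF was 2.29, against 2.36 with it.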

How the results depend on the processing

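Over 15 alternatives, the members called in ES against MEF stayed at 8, and the counts spanned 3 to 7 in OKM against MEF (6 as reported), 2 to 7 in iPS against OKM (3), 0 to 5 in iPS against ES (1), 6 to 8 in iPS against MEF (8) and 4 to 8 in OKM against ES (6). Without background correction 3 members were called in OKM against MEF and 0 in iPS against ES, where Bmi1 was at 0.95, and fewer genes were called overall (1980, 674 and 939 against 3012, 1250 and 1749 in OKM against MEF, iPS against OKM and iPS against ES). With the adjusted p alone, 7 were called in iPS against OKM and 5 in iPS against ES. Leaving out 1 array gave 6 to 7 in OKM against MEF and 5 to 6 in OKM against ES, and changed no other count. Among 1104 member values, 18 lost and 16 gained a call and 7 changed sign, none of them called: leaving out 1 array gave -0.04 (without OKM replicate 1) to 0.43 for Eed in OKM against MEF and -0.12 to 0.04 for Bmi1 in iPS against OKM, and Phc1 in iPS against ES was 0.05 in the first 8 arrays. Ezh2 minus Ezh1 in iPS against ES was -0.11 and Cbx7 minus Cbx2 -0.03 without background correction, and the second was -0.01 with median scaling. In OKM against MEF, Ezh2 minus Ezh1 was -0.06 with cyclic loess and -0.02 with median scaling, and the cause was not tested. Correlations of same-numbered arrays ran from -0.424 to 0.55, and not every array was closest to its own number (5 of 8 in OKM against MEF, 0 of 8 in iPS against OKM). With the replicate block the counts were 6, 3 and 1 in OKM against MEF, iPS against OKM and iPS against ES, and no member call changed.

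Limits: probes near background compress differences, as for Bmi1 in ES cells and Cbx7 in MEF, and 2 members have no level. Strain, feeders and medium move with the groups.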

Other observations

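Genes that oppose or receive Polycomb repression are given as values. Of 8 tested H3K27 demethylase and Trithorax genes, 4 were called higher and 0 lower in ES against MEF, a share near the 48.5% of all genes called, with a median log2 change of 1.03 against 0.04 over all genes. The 4 were the Trithorax genes Kmt2b, Ash2l, Dpy30 and Wdr5. Neither demethylase was called: Kdm6a changed by 0.67 and Kdm6b by -0.58. Ash2l, Dpy30 and Wdr5, subunits of the methyltransferase complexes that mark active promoters, rose by 2.55, 2.54 and 2.01. Dpy30 was already higher in OKM than in MEF, by 2.40. Of 5 tested genes of H2A deubiquitinases and their partners, 1 was called in OKM against MEF and 2 in ES against MEF, all lower. Of all genes, 31.9% and 48.5% were called in these comparisons. Usp16, which removes the PRC1 mark, fell by 1.31 on the log2 scale in OKM against MEF, and Foxk1, a partner of the PR-DUB complex, fell by 1.34 in ES against MEF. Bap1, the enzyme of that complex, was higher in ES than in MEF by 0.99, and Hcfc1 and Ogt by 0.82 and 0.80, all under 2-fold.

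Among 33 measured textbook Polycomb targets, 13 passed the filter, many of them through MEF, so their counts are a description. In ES against MEF 1 was called higher and 10 lower, against 24.2% and 24.3% of all genes, and in iPS against ES 7 higher and 0 lower, against 11.2% and 7.28%. En1 was at least 10.3-fold lower in ES cells than in MEF, and Twist1 changed by -3.37. In iPS against ES, Msx1, a homeobox factor, was higher by 2.55 and Zic1, a zinc-finger factor, by at least 3.46-fold. These targets include fibroblast genes, and the part of feeder RNA was not tested.

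One proliferation gene stood apart. Plk1, a mitotic kinase, read 5.67 to 6 in ES cells, against 11.95 to 12.09 in iPS cells. The ES values were near the detection limit, with 3 of 4 arrays detected. The fitted log2 change in iPS against ES was 6.16 (limma adjusted p = 1.49e-18). Plk1 averaged 11.09 in MEF and 11.66 in OKM cells, so it read low in ES cells alone. In ES against MEF it was the 1 proliferation gene called lower, while 8 were called higher. ES cells also differ in strain from the other groups. The part of strain, or of the probe, in the Plk1 difference was not tested. Mcm3 was lower in iPS than in ES cells, with a change of -1.04.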
